A study of Rattus norvegicus with 9 samples.

Results

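The let-7 and miR-98 family was described here in the wall of the rat left ventricle, as 8 members (let-7a, let-7b, let-7c, let-7d, let-7e, let-7f, let-7i and miR-98). A sequence was taken as a member when its annotation was to a rat entry and the first miRNA name in that annotation was one of these 8, whether it was filed as the mature strand, as the * strand (the strand from the other arm of the hairpin) or as another part of the precursor. By this rule 2628 of the 46358 annotated sequences were members, and they held 355519 of the 7631327 annotated reads, or 4.66%. The tissue came from 3 male Sprague-Dawley rats aged 8 months, for which no treatment is named, called hearts 6, 7 and 8. The outer layer (epicardium), the middle (mid-myocardium) and the inner layer (endocardium) of the wall were separated, so that every heart gave all 3 layers and every layer had 3 libraries. Small RNA was ligated to adapters, amplified and sequenced, and abundance was expressed in RPMM, the reads of a sequence scaled to a common total of annotated reads in each library. The libraries held 283991 to 1428025 annotated reads, so that 3 reads were worth 2.10 to 10.6 RPMM.

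A layer cut from the wall holds cardiomyocytes together with vessel, fibroblast and blood cells, and in such bulk tissue fewer cells of a type and less RNA per cell cannot be told apart. All 6 striated muscle miRNAs looked for were detected, and miR-133a, the commonest of them, had layer means between 78097 and 108590 RPMM. The endothelial miR-126 was detected as well, and so were both smooth muscle, both fibroblast, all 3 leukocyte and both red cell markers looked for.

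let-7 was first found in the nematode as a gene that times development, and in mammals it has become a family of closely related miRNAs that are abundant in differentiated tissue. A miRNA finds its targets mainly through its seed, the bases at positions 2 to 8, so that members with 1 seed can share targets, among which the growth genes of the RAS and HMGA2 kind are the best known. The making of let-7 is controlled after transcription: LIN28 binds the precursor, and terminal uridyl transferases add U to its 3′ end. In heart muscle let-7 members are among the miRNAs that are usually easy to detect.

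The mature sequences are shown because the members differ by so few bases that the naming of a read depends on them. They are given 5′ to 3′ as RefSeq lists them for the rat build GRCr8, with the seed in capitals:
let-7a: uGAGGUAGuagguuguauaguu
let-7b: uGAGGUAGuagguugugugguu
let-7c: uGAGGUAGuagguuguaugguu
let-7d: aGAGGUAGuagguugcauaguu
let-7e: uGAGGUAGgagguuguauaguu
let-7f: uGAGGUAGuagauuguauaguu
let-7i: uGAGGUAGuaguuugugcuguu
miR-98: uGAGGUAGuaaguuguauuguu
let-7g: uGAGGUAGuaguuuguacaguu

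All 9 share the seed GAGGUAG and a length of 22 nts. Counting from 1 at the first base and writing the base of let-7a first, let-7c differed from let-7a by A19G alone, let-7f by G12A alone and let-7e by U9G alone. let-7b differed by A17G and A19G, let-7d by U1A and U16C, and miR-98 by G11A and A19U. let-7i was the most distant, with G12U, A17G, U18C and A19U. let-7g is no member by the rule, since no sequence in the table carried a rat let-7g name, but it differed from let-7a by only G12U and U18C, and its reads are described below because most of them were filed under let-7a.

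Some of the genes lie in clusters. let-7a-1 (mature strand at chr17:16320145-16320166), let-7f-1 (chr17:16320508-16320529) and let-7d (chr17:16322273-16322294) form 1 cluster inside the lncRNA LOC120097935, with 363 bases from the start of let-7a-1 to that of let-7f-1 and 1765 from there to let-7d. let-7c-2 (chr7:118683636-118683657) and let-7b (chr7:118684044-118684065) start 408 bases apart, and no other annotated gene overlaps them. let-7f-2 (chrX:24460052-24460073) and miR-98 (chrX:24460663-24460684) start 611 bases apart within the span of Huwe1, a ubiquitin ligase. let-7a-2 (chr8:50805219-50805240) lies in the lncRNA Lnc215, let-7c-1 (chr11:29688127-29688148) in the lncRNA LOC103693508, let-7e (chr1:67350243-67350264) in the span of Spaca6, and let-7i (chr7:60527935-60527956, minus strand) in that of LOC134479799. let-7a, let-7c and let-7f are each made from 2 genes with 1 mature sequence, so their mature reads cannot be assigned to a gene.

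The level of the family as a whole differed more between single libraries than between layers. In the epicardium of hearts 6, 7 and 8 the family reached 59180, 37420 and 34791 RPMM. In mid-myocardium the values were 56607, 51907 and 45015 RPMM, and in endocardium 52996, 43415 and 47893 RPMM, in the same order of hearts. The 3 libraries of heart 6 were thus the 3 highest of the 9, and the layers overlapped. The layer means were 43797 ± 13387 RPMM in epicardium, 51177 ± 5830 in mid-myocardium and 48101 ± 4794 in endocardium (SD, n = 3). By the exact two-sided permutation test the p was 0.7 for endocardium against epicardium, 0.4 for mid-myocardium against epicardium and 0.5 for mid-myocardium against endocardium, with 0.7 as the smallest after Benjamini-Hochberg adjustment over the 3. With 3 libraries against 3 this test cannot go below 0.1, and swapping layers within hearts, which cannot go below 0.25, gave p = 0.75, 0.5 and 0.5 by exact permutation.

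let-7f was the most abundant member, followed by let-7a, let-7c, let-7i, let-7d, let-7b, let-7e and miR-98. Over the 9 libraries let-7f had a mean of 16433 RPMM with all its reads counted, and let-7a had 12756 RPMM. let-7c had 6483, let-7i 4902, let-7d 3078, let-7b 3078, let-7e 681 and miR-98 281 RPMM, so that the family spanned a wide range of levels around 1 seed. The order let-7f above let-7a held in 9 of 9 libraries, although the ranges of these 2 members over the libraries overlapped. let-7c was above let-7i in 8 of 9 libraries, while let-7d was above let-7b in only 5 of 9, so these 2 did not differ beyond their spread. Every other step held in 9 of 9 libraries without overlap of the ranges. A comparison between miRNAs also carries the preferences of ligation and amplification, which were not measured.

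**Figure D1:**
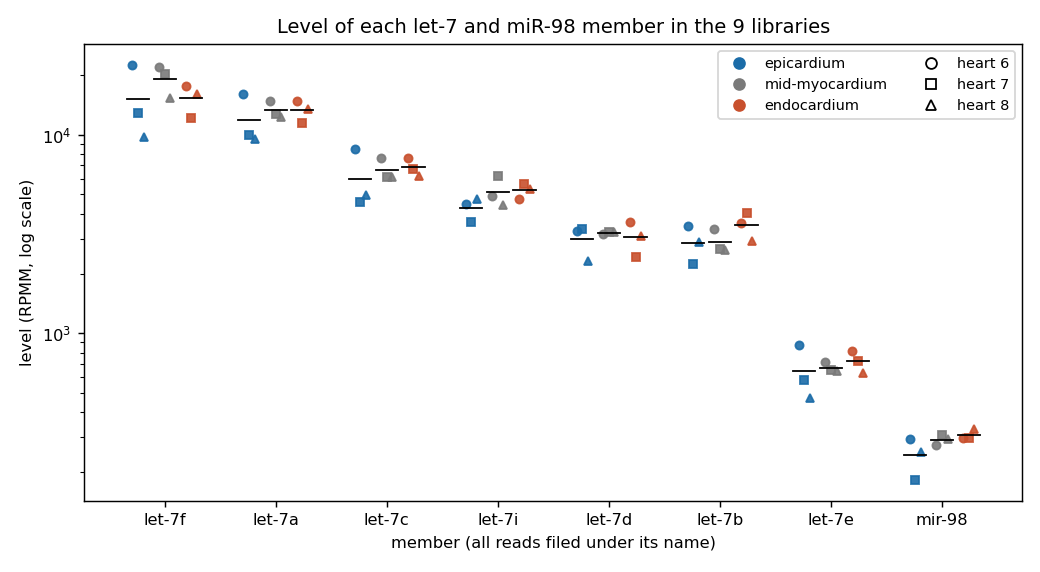
Level of each member in RPMM on a log axis, with 1 point for each of the 9 libraries, coloured by layer and shaped by heart, and a bar at the mean of each layer. let-7f and let-7a lie at the top and miR-98 at the bottom in every library, and the layers of each member lie close to each other.

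let-7f varied most in absolute level. Its mature reads stood at 21792, 12445 and 9309 RPMM in the epicardium of hearts 6, 7 and 8. They stood at 21120, 19528 and 14808 RPMM in mid-myocardium, and at 16843, 11633 and 15490 RPMM in endocardium. The epicardial libraries held both the highest and the lowest of the 9 values. let-7a mature reads, as filed, ran from 9093 RPMM in the epicardium of heart 8 to 15202 in the epicardium of heart 6.

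let-7i was more even. Its mature level was 4275, 3403 and 4504 RPMM in epicardium, 4747, 5818 and 4173 RPMM in mid-myocardium, and 4560, 5428 and 4932 RPMM in endocardium. All 3 endocardial libraries were above all 3 epicardial ones. No other of the 22 member entries tested separated these layers, in either direction. Over all 501 entries 7.98% separated them, with either layer as the higher one. miR-98, the least abundant member, stood at 284, 175 and 239 RPMM in epicardium, 264, 287 and 283 in mid-myocardium, and 277, 278 and 325 in endocardium. The lowest miR-98 value, in the epicardium of heart 7, still rested on 135 reads.

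No member passed the test between endocardium and epicardium. Entries (a miRNA name with its mature, * or precursor reads) were tested by limma on log2(RPMM + 1) when at least 1 library held 10 reads, which left 501 entries and 22 of the 24 of the family. The * reads of let-7c and the precursor reads of miR-98 were too few. At an adjusted p under 0.05 limma called 0 of the 501 entries (0%) and 0 of the 22, and at an unadjusted p under 0.05 it called 18 entries (3.59%) and again 0 of the 22. On the reads themselves edgeR and DESeq2 called 0 entries, and Baggerley's test, which weights proportions by library size, called 1, no member. The p-values measure only the spread between these samples.

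All mature strands but let-7d had a difference above 0 between endocardium and epicardium, and the 95% confidence interval of each crossed 0. miR-98 had the largest difference, with 293 ± 27.4 RPMM in endocardium and 233 ± 54.8 in epicardium (SD, n = 3), or 0.36 on the log2 scale (SE 0.26, limma adjusted p = 0.992), and it was higher in 2 of 3 hearts. let-7b was higher in 3 of 3 hearts by 0.34 (SE 0.28), and let-7i in 3 of 3 by 0.30 (SE 0.25, 95% confidence interval −0.27 to 0.87), both with a limma adjusted p of 0.992. let-7d lay at −0.08 and let-7f at 0.09, with SEs of 0.29 and 0.35. Of the 22 member entries 19 had a difference above 0, with a median of 0.16, while over all 501 entries 47.7% were above 0 and the median was −0.02. All members are fractions of the same 9 libraries, so their differences are not independent of each other.

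**Figure D2:**
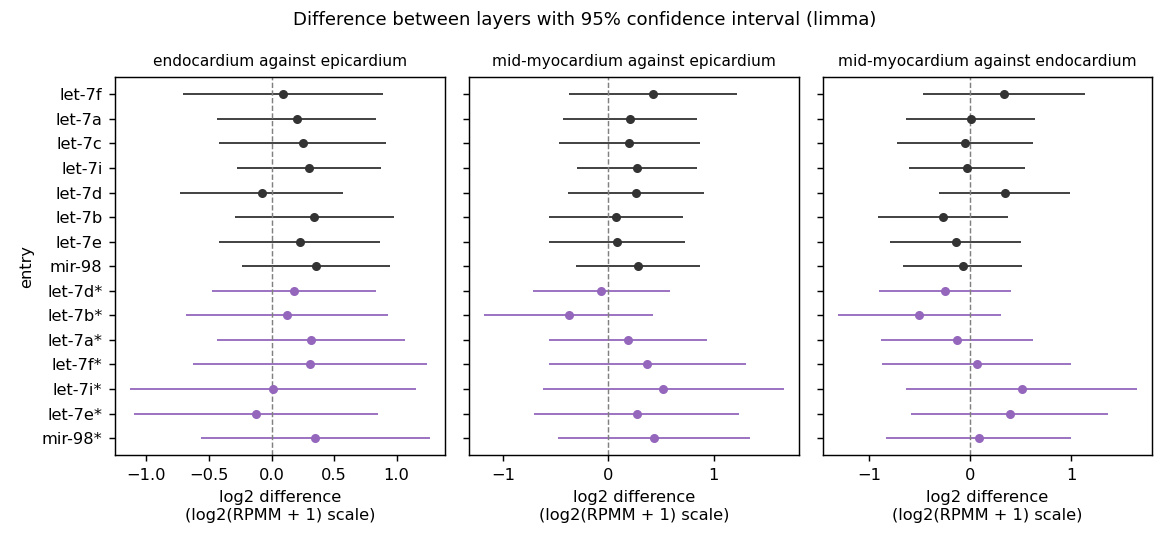
Log2 differences between layers on the log2(RPMM + 1) scale for the 8 mature strands (dark) and the 7 tested * strands (purple), each with its 95% confidence interval from limma. Every interval crosses 0 in all 3 comparisons.

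The other layers gave the same count of calls. For mid-myocardium against epicardium limma called 0 of 501 entries at the adjusted threshold (0%), and 17 (3.39%) at an unadjusted p under 0.05, of which 0 were members. All 8 mature members lay above 0, from 0.07 for let-7b to 0.42 for let-7f (SE 0.35, limma adjusted p = 0.974). For mid-myocardium against endocardium limma called 0 of 501 (0%), and 25 (4.99%) at an unadjusted p under 0.05, again with 0 members. The median of the 22 member entries there was −0.02, and the lowest was let-7b* at −0.50 (SE 0.36, limma adjusted p = 0.928). edgeR and DESeq2 called 0 entries in both comparisons. Baggerley's test called 1 entry for mid-myocardium against epicardium and 15 for mid-myocardium against endocardium, of which 1 was a member, let-7f. It had 18486 ± 3283 RPMM in mid-myocardium and 14655 ± 2704 in endocardium (SD, n = 3), with overlapping libraries. For let-7f the weighted spread between libraries in Baggerley's test fell below counting error in both layers. That call therefore rests on counting error and not on the spread between hearts. By limma the let-7f difference was 0.34 (SE 0.35, limma adjusted p = 0.928).

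The single sequences behind the entries were tested as well, since an isomiR (a read with other ends or letters than the annotated miRNA) can differ where the sum does not. Of 562 sequences that averaged 100 RPMM or more in epicardium or in endocardium, 43 belonged to the family. limma called 0 of the 562 (0%) at the adjusted threshold and 13 (2.31%) at an unadjusted p under 0.05, of which 0 were members. edgeR called 0. The exact mature sequence of miR-98 differed by 0.37 on the log2 scale (SE 0.26) and that of let-7i by 0.34 (SE 0.25), both with a limma adjusted p of 0.995.

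Between hearts the family was also without a call. limma's F test over the 9 libraries with layer as a covariate called 0 of 501 entries (0%) at the adjusted threshold and 53 (10.6%) at an unadjusted p under 0.05, of which 2 were members. edgeR's quasi-likelihood test called 17 entries, of which 0 were members. The 2 members were let-7e*, with 22.2 ± 2.49, 14.96 ± 0.532 and 10.6 ± 4.03 RPMM in hearts 6, 7 and 8 (SD, n = 3 layers), and the precursor reads of let-7c, with 70.9 ± 6.69, 40.6 ± 4.37 and 42.8 ± 5.65 RPMM. The 2 members were no larger a share of the family than the 10.6% over all entries. let-7c precursor reads were higher in each library of heart 6 than in any other library. How many of all 501 entries set a heart apart in this way was not counted. The limma adjusted p was 0.293 for let-7e* and 0.369 for the let-7c precursor reads. let-7f averaged 19918 ± 2684, 14535 ± 4343 and 13202 ± 3389 RPMM in the same order, with a limma adjusted p of 0.672.

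Much of what was filed under rat let-7a, 24.9% ± 3.58 (SD over 9 libraries), was nearer to let-7g. Each read was compared with the mature sequence of every member and of let-7g, and 26964 reads in the whole table were nearest to let-7g. Of these, 23377 (86.7%) were filed under rat let-7a, 3145 under let-7g of other species and 376 under rat let-7i. The commonest was let-7g itself, letter for letter, with 16785 reads, filed under let-7a at 2 mismatches. let-7g is also 2 bases from let-7f and from let-7i. In the family 30992 reads carried more than 1 miRNA name, and only the first was used here, so where a read is filed depends on that rule too. Shown with capitals where they differ from let-7a, with T for U as in the reads, the 4 commonest reads of the let-7a mature entry were:
let-7a, exact: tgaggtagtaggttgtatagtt
let-7a, 1 nt shorter: tgaggtagtaggttgtatagt
let-7g, exact: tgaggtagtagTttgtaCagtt
let-7g, 1 nt shorter: tgaggtagtagTttgtaCagt

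These reads made up 37.9%, 19.5%, 18.5% and 5.79% of the let-7a mature entry. The share of the whole let-7a entry that was nearest to let-7g was 22.7%, 25.5% and 26.3% in the epicardium of hearts 6, 7 and 8, 24.8%, 31.1% and 26.4% in mid-myocardium, and 19.1%, 21.1% and 27.5% in endocardium. The layers overlapped (exact permutation p = 0.5 for endocardium against epicardium). Without these reads let-7a had a mean of 9598 RPMM in place of 12756, and the ratio of let-7f to let-7a rose from 1.27 to 1.71. let-7a stayed above let-7c in 9 of 9 libraries.

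The reads nearest to let-7g, from all entries, summed to 3648 RPMM on average (2778 to 4582), which was below let-7i and let-7c in every library. By layer they stood at 3340 ± 686 RPMM in epicardium, 4180 ± 435 in mid-myocardium and 3425 ± 729 in endocardium (SD, n = 3, exact permutation p = 0.9 for endocardium against epicardium). In RefSeq rat let-7g lies at chr8:115701026-115701047 where Wdr82 and Rpl29 overlap it. In the table that the authors grouped on the mature sequence, the let-7f to let-7a ratio was 1.67 ± 0.276 over the 9 libraries (SD), with the authors' own division of shared reads and another total.

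**Figure D3:**
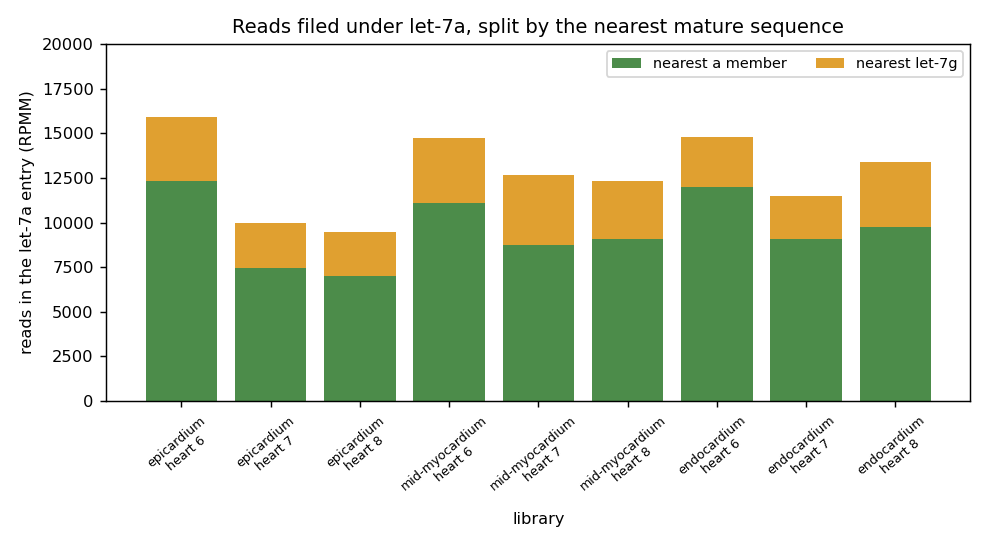
Reads filed under rat let-7a in each of the 9 libraries, in RPMM, split into those nearest a member (green) and those nearest let-7g (orange). The orange part runs from 19.1% to 31.1% of the entry.

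Among the other members, naming was less open. Another of the 8 members matched equally well or better for 27.2% of the mature reads of let-7a. Of all mature reads of let-7a, 1.51% were of this kind and not nearest to let-7g. For let-7b, let-7c, let-7d, let-7e, let-7f, let-7i and miR-98 another member matched equally well or better for at most 0.412%. Precursor reads from the same arm were less certain, with 79.0% for let-7a, 7.99% for let-7c, 2.01% for let-7b and 1.97% for let-7d, and 19.7% of those of let-7i were nearest to let-7g.

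The 5′ end of the mature strands was nearly uniform. Of the mature reads of the family, 99.6% ± 0.0456 (SD over 9 libraries) began at the annotated base, which keeps the seed in place. The lowest member was let-7d with 99.0% and the highest let-7e with 99.7%. In a simpler measure, the share of reads whose first 8 letters are those of the annotated sequence, the 8 mature members ran from 98.4% to 99.4%, while the median of 104 other rat entries with at least 100 RPMM was 97.9% (quartiles 92.3% and 98.8%).

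The 3′ end varied much more, and by member. The exact mature sequence accounted for 49.97% ± 1.16 of the mature reads of the family (SD over 9 libraries), with 49.3% in epicardium, 50.6% in mid-myocardium and 50.03% in endocardium (exact permutation p = 0.6 for endocardium against epicardium, n = 3). It made up 59.5% of let-7c, 59.5% of let-7f and 57.7% of miR-98. It made up 51.0% of let-7a once the reads nearest let-7g were left out, 48.9% of let-7d, 45.9% of let-7i, 45.6% of let-7e and 35.9% of let-7b. Even the lowest of these, let-7b, was above the median of the other entries, 30.2%.

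The 3′ ends moved both ways. let-7e and let-7d were often cut short, with 39.9% and 36.5% of their reads ending before the annotated base, mostly by 1 nt (34.3% and 30.5%). let-7b and let-7i were often extended, with 44.4% and 37.4% of reads ending after it, while in let-7f, let-7d, let-7e and miR-98 this share lay between 8.37% and 12.4%. let-7c stood between, at 18.9%. The commonest extended reads are shown for let-7i and let-7b, with the added letter in capitals:
let-7i with A: tgaggtagtagtttgtgctgttA
let-7i with T: tgaggtagtagtttgtgctgttT
let-7b with T: tgaggtagtaggttgtgtggttT
let-7b with A: tgaggtagtaggttgtgtggttA

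The first made up 19.8% of the let-7i mature reads and the second 12.4%, and neither letter is in the let-7i hairpin of RefSeq at that place. In all, 22.4% of let-7i mature reads ended in A that the hairpin does not hold (19.0% to 26.2% over the libraries) and 12.9% in T that it does not hold (12.3% to 14.3%). Both shares overlapped between the layers, with 23.5% ± 2.51 in epicardium and 21.7% ± 1.14 in endocardium for A (SD, n = 3, exact permutation p = 0.5). The let-7b reads with T and with A made up 15.3% and 10.7% of its mature reads, and no let-7b hairpin was at hand to say whether the letters are in it.

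For A, let-7i stood apart from the other 6 members whose hairpins were at hand. A that the hairpin does not hold ended 11.96% of let-7c mature reads, 11.2% of let-7e, 6.90% of let-7d, 5.79% of let-7f and 4.62% of miR-98, and 6.50% of let-7a without the reads nearest let-7g. The corresponding share for T, which stands for U in the RNA, was 4.14% in miR-98 and 1.07% in let-7e. It was at most 0.156% in let-7a, let-7c, let-7d and let-7f. In these 4 members a hairpin holds T right after the mature end, so a first added T could not be counted. Reads with that T made up 7.74% of let-7c, 5.74% of let-7d and 4.59% of let-7f mature reads, and averaged 573 RPMM in epicardium for let-7a. As counted, and with let-7b left aside, let-7i had the highest share of both letters in each of the 9 libraries, but for T it cannot be compared with these 4.

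**Figure D4:**
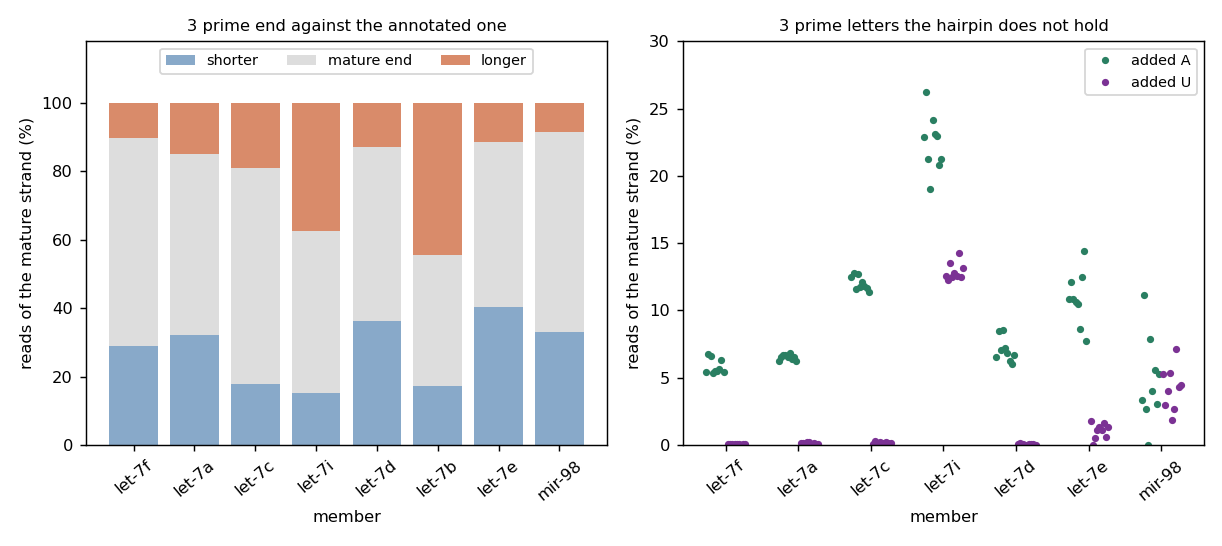
Left, share of mature reads that end before, at or after the annotated 3′ base, as means over the 9 libraries, for each member (let-7a without the reads nearest let-7g). Right, share of mature reads whose 3′ end carries A only (green) or U only (purple) that the RefSeq hairpin does not hold, with 1 point per library. let-7b, whose hairpin was not at hand, is not drawn on the right. Among the members drawn there let-7i lies highest for both, but in let-7a, let-7c, let-7d and let-7f a first added U is in a hairpin and is not counted.

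Between endocardium and epicardium the ends differed little. Of 104 comparisons (13 measures of the ends in 8 members) 5 had an exact permutation p of 0.1, the smallest that 3 libraries against 3 can give, and the smallest p after Benjamini-Hochberg adjustment over the 104 was 1. The widest of these 5 gaps was in let-7e, where reads 1 nt short made up 37.3% ± 1.16 in epicardium and 31.9% ± 1.54 in endocardium (SD, n = 3, exact permutation p = 0.1).

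The * strands fell into a wide range. let-7d* was abundant, with 9715 reads against 12940 of its mature strand, and its sequence is shown with that of let-7b*, the next in share, from RefSeq with the bases at positions 2 to 8 in capitals:
let-7d*: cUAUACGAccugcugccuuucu
let-7b*: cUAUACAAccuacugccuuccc

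let-7d* stood at 1213, 1537 and 1064 RPMM in the epicardium of hearts 6, 7 and 8. It stood at 1264, 1423 and 959 RPMM in mid-myocardium and at 1698, 1121 and 1514 RPMM in endocardium. As a share of the reads of both strands it made up 37.6%, 46.6% and 46.4% in epicardium, 39.9%, 44.4% and 30.2% in mid-myocardium, and 47.2%, 46.9% and 49.7% in endocardium. All 3 endocardial shares were above all 3 epicardial ones, by 4.42 percentage points on average, but the nearest, 46.9% and 46.6% in heart 7, lay close together. The exact permutation p was 0.1, the smallest possible, with an adjusted p of 0.8 over the 8 stems. When layers were swapped within hearts the exact permutation p was 0.25. Only 1 of the 8 stems, let-7d, reached the smallest p, and stems outside the family were not compared between layers. The lowest share, in the mid-myocardium of heart 8, had a Wilson interval of 28.7% to 31.8%, which covers counting error only.

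The other * strands were smaller parts of their stems. The share was 10.1% for let-7b, 3.66% for miR-98, 2.34% for let-7e, 0.702% for let-7a, 0.360% for let-7i, 0.272% for let-7f and 0.0638% for let-7c. let-7c-2* has the sequence of let-7a-1*, and its reads were counted under let-7a. The shares of let-7a and let-7c therefore cannot be read separately. Among 98 rat stems with at least 100 RPMM, let-7d ranked 8 and let-7b 15, and the median of the 90 stems outside the family was 0.270% (quartiles 0.0436% and 5.18%). let-7b* had 313.8 ± 107 RPMM in epicardium, 235 ± 41.1 in mid-myocardium and 343 ± 113 in endocardium (SD, n = 3), with overlapping libraries.

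The * reads can be split by gene where the mature reads cannot, since the * strands of the gene copies differ. let-7a-1* and let-7c-2* have 1 sequence and held 633 reads, while let-7a-2* held 10 and let-7c-1* held 31. let-7f-1* held 211 reads and let-7f-2* 104. These counts are of * strands and say nothing of how many mature reads each gene gave.

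Some * strands often ended in a U that their hairpins do not hold. The commonest such reads of 6 strands are shown, with T for U and with the letters in capitals that differ from the annotated * strand or were added to it:
let-7a-1*: ctatacaatctactgtctttcT
let-7b*: ctatacaacctactgccttccT
let-7e*: ctatacggcctcctagctttccT
let-7f-1*: ctatacaatctattgccttccT
let-7f-2*: ctatacagtctactgtctttcT
miR-98*: ctatacaacttactactttccT

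For let-7e* the unchanged strand was commoner, with 42 of 116 reads against 30 of the one shown. Over the 9 libraries, reads that ended in T only, outside the hairpin, made up 100 of 104 let-7f-2* reads (96.2%, 95% Wilson interval 90.5% to 98.5%), 70 of 78 miR-98* reads (89.7%, 81.0% to 94.7%) and 160 of 211 let-7f-1* reads (75.8%, 69.6% to 81.1%). They made up 1716 of 2370 let-7b* reads (72.4%, 70.6% to 74.2%), 443 of 633 let-7a-1* reads (70.0%, 66.3% to 73.4%) and 54 of 116 let-7e* reads (46.6%, 37.7% to 55.6%). In let-7b* the T took the place of the last annotated base, so it could be judged without a hairpin.

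The remaining * strands had few such ends. They were 54 of 9715 reads in let-7d* (0.556%, 0.426% to 0.724%) and 12 of 129 in let-7i* (9.30%, 5.40% to 15.6%). Both of these annotated strands already end in U, so a U at that place was not counted. let-7c-1* had 1 of 31 such reads and let-7a-2* 0 of 10. Since the exact let-7b* sequence had only 7 of its 2370 reads, a count of exact sequences alone would have missed nearly all of this strand.

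**Figure D5:**
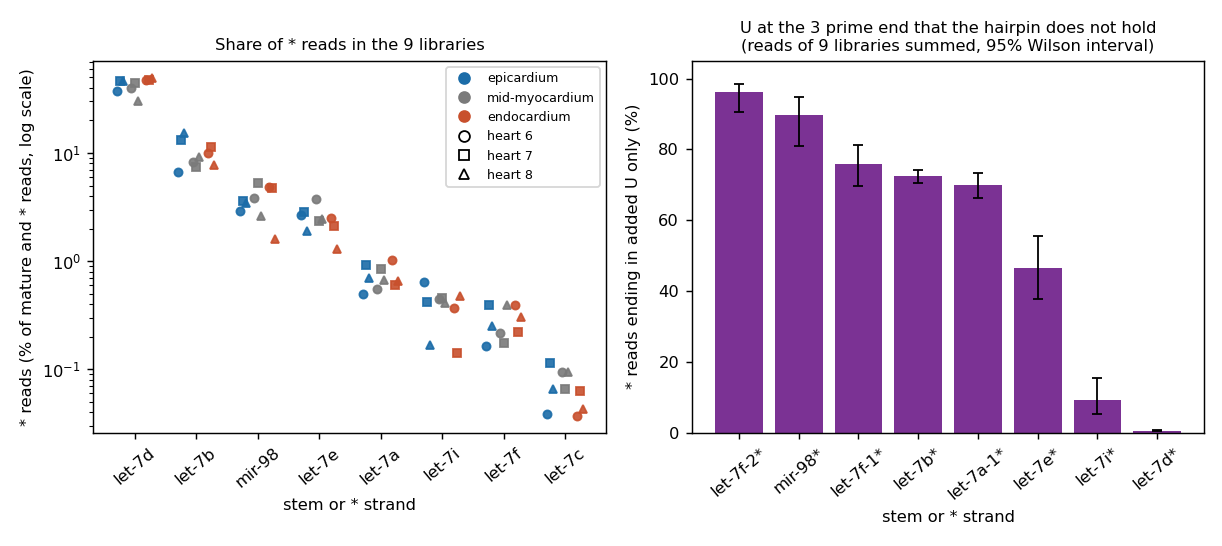
Left, * reads as a percentage of mature and * reads of each stem, on a log axis, with 1 point per library (let-7c-2* is counted under let-7a). Right, share of the * reads of each strand that end in U only where the hairpin has none, over the 9 libraries, with the 95% Wilson interval. let-7a-1* includes let-7c-2*, while let-7c-1* and let-7a-2* (31 and 10 reads) are not drawn. let-7d* and let-7i*, whose annotated strands already end in U, are the lowest of the 8 strands drawn.

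Some let-7 genes of mammals lie beside genes of the miR-99 and miR-125 families, and the mature strands of these neighbours had their lowest mean in heart 6. miR-99b sits beside let-7e with miR-125a. Its mature and * reads together stood at 2486, 14763 and 20272 RPMM in the epicardium of hearts 6, 7 and 8. They stood at 2007, 7678 and 3588 RPMM in mid-myocardium, and at 1632, 10388 and 13810 RPMM in endocardium. Heart 6 had the lowest value of each layer, whereas let-7e was highest in heart 6 in each layer. The mature reads of miR-99b averaged 2012, 10920 and 12540 RPMM in hearts 6, 7 and 8, with a limma adjusted p of 0.109, and those of miR-100 averaged 795, 4179 and 4706 RPMM with the same adjusted p. The * strands did not share this order, since miR-99b* averaged 29.3, 23.0 and 16.01 RPMM (limma adjusted p = 0.403), miR-125b* 608, 581 and 584 RPMM, and miR-99a* 80.1, 66.7 and 77.9 RPMM. No entry of these neighbours passed limma between hearts at the adjusted threshold. Of the 13 entries of miR-99a, miR-99b, miR-100, miR-125a and miR-125b, limma called 0 between any layers.

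As a description over the 9 libraries, which share 3 hearts and fixed totals, 104 other rat entries with at least 100 RPMM were ranked by the Pearson r of their log2 level with that of the family. The 5 most alike were miR-27b (r = 0.88), miR-221 (0.86), miR-23b (0.77), miR-93 (0.75) and miR-15b (0.70). The 3 lowest were miR-100 (−0.82), miR-99b (−0.81) and miR-99a (−0.75).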

How the data were processed

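The authors annotated the reads of each library to miRBase, with CLC Genomics Workbench, with at most 2 mismatches and at most 3 letters more or fewer at an end, and deposited the annotated sequences as RPM on the annotated reads of each library (RPMM). A grouped table, whose signal the authors deposited as RPM on other totals, served only as an alternative. The authors also deposited counts for 13317 unannotated sequences.

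Whole reads were recovered for 100% of the RPMM values (within 0.02 of a whole number), and edgeR's quasi-likelihood test on those reads called 0 entries between layers. Reads were summed by the first name in the annotation and by mature, * or precursor match. The tests were limma on log2(RPMM + 1) with Benjamini-Hochberg adjustment, over all entries that reached 10 reads in any library, and exact two-sided permutation tests for single values. limma, edgeR, DESeq2 and Baggerley's test were also run on simulated data, and the permutation tests were not. Ends were placed on RefSeq sequences (GRCr8); all 8 members matched by symbol, but the let-7b hairpin was not in the table, and let-7c-1* was taken from its unchanged deposited entry.

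The members, lists and tests were chosen with earlier results of these data known. All matures and * strands of the members, the miR-99, miR-100 and miR-125 neighbours, and the 5 entries most alike in level were to be named. Libraries with 1 number come from 1 animal by the labels. Over 501 entries the deviations of 9 same-heart pairs correlated with a median r of 0.14 (−0.15 to 0.40), and those of 18 other pairs with −0.17 (−0.39 to 0.34). The test left the heart out. R 4.3.3, limma 3.58.1, edgeR 4.0.16, DESeq2 1.42.0, Python 3.11.15, pandas 2.3.3 and scipy 1.17.1 were used.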

Additional observations from a re-analysis of the deposited data

Results flagged for a closer look

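Among the 13317 unannotated sequences, 3 began like let-7b over a stretch longer than the seed, and they held 134 reads over the 9 libraries, with 48 in epicardium, 40 in mid-myocardium and 46 in endocardium. They stand out because they lie outside the annotated table that the comparisons used. No group of 4 or more libraries exists here, so single libraries were not tested for standing apart.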

How the results depend on the processing

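With heart number as replicate block, limma called 0 entries in each comparison of layers, and 0 unique sequences. So the pairing changed no call, and edgeR with the block, an alternative chosen after seeing the data, also called 0. TMM and DESeq2 factors, other pseudocounts, other filters, DESeq2 and each library left out in turn gave 0 calls between layers too. Baggerley's test called 1, 1 and 15 entries, with 1 member in the last (mid-myocardium against endocardium), let-7f, whose call rests on counting error. Between hearts the calls rose from 0 to 2 with TMM, 10 with a pseudocount of 10, 4 with at least 10 reads in every library and 17 with edgeR, and ranged from 0 to 6 with a library left out (1 without epicardium 8, 6 without mid-myocardium 8), with 0 members in each. The cause was not tested.

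Of 312 recomputed values of 13 named differences, 304 kept their direction, and 8, all of endocardium against epicardium, turned. let-7f was −0.060 by Baggerley's test and ran from −0.19 to 0.43 with a library left out, let-7d from −0.29 to 0.071, and let-7b* from −0.10 to 0.40 and was −0.026 on reads without a mismatch. The family total of endocardium minus epicardium ran from −94.6 (without heart 8) to 9549 RPMM (without heart 6). Mid-myocardium minus endocardium, 3075 RPMM, became −9.04 with rat-annotated reads as the total.

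The exact share of 49.97% became 54.1% without reads that another member matches equally well, 51.4% with sequences of at least 10 reads only, and 53.8% without the reads nearest let-7g (chosen after seeing the data). The share with the annotated 5′ end, 99.58%, became 99.64% and 99.88% under the first 2 of these. On reads without a mismatch let-7a had 8496, let-7b 1910 and let-7i 3017 RPMM. With 3 hearts, differences of the size seen here were within the confidence intervals, and the shallowest library, of 283991 reads, limits the rare * strands.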
